A study of Caenorhabditis elegans with 8 samples.

Results

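The DNA damage response and repair genes of Caenorhabditis elegans were examined as a set of 47 listed genes, chosen by symbol. They cover checkpoint signalling, the p53 branch, base, nucleotide and mismatch excision repair, recombination, translesion synthesis, crosslink repair and end joining. Of the 47, 46 were found among the 17826 genes of the deposited table, and ced-13, the gene of a BH3-only cell death protein, was not analysed here. RNA came from whole wild-type worms of strain N2, in 4 samples exposed to the DMSO vehicle and 4 exposed to 50 µM zidovudine. Worms were moved to the plates at larval stage 4 and harvested as adults of day 1 after 24 h, and both groups were taken to have had 5-fluorouracil in the plates, as the treatment protocol is worded alike for all samples. The series' title names pyrimidine metabolism, translation and ATF-4 as the study's subject. No label states that the samples of a group were grown as separate cultures, so the p-values below reflect sample-to-sample spread that may be technical.

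Cells read DNA lesions through kinases of the ATM and ATR family and a clamp of 3 proteins, and pass the signal to checkpoint kinases and to p53, which in the worm germ line can start apoptosis through BH3-only proteins. Excision pathways remove damaged or wrong bases, recombination and end joining mend double-strand breaks, and translesion polymerases copy past lesions that remain. In adult worms dividing cells are found mainly in the germ line and in embryos, where many of these genes are active. Zidovudine is a thymidine analogue that ends a growing DNA chain once a polymerase has built it in, and 5-fluorouracil disturbs thymidylate supply and can lead to uracil and fluorouracil in DNA, which uracil glycosylases cut out.

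None of the 46 genes passed the test of zidovudine against DMSO across all genes. At a Benjamini-Hochberg adjusted limma p under 0.05, 0 of the 46 passed, against 21 of all 12382 genes tested, or 0.17%. At an unadjusted p under 0.05 there were also 0, where the share over all genes tested was 11.8%. In 0 of the 46 did the 4 zidovudine libraries lie wholly on one side of the 4 DMSO libraries, and over all genes tested this held for 6.65% (3.84% higher and 2.82% lower with zidovudine). All 46 passed the filter on low values, so these counts cover each gene found. A median of 3836 reads lay behind a member's value, against 816.2 over all genes tested. Members also varied less within a group, with a median SD of 0.091 log2 CPM against 0.15.

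CPM are reads scaled to a common library size, levels are given as log2 CPM, and every difference below is zidovudine minus DMSO on that scale. The differences ran from -0.14 for chk-2 to 0.13 for clk-2; 25 were positive and 21 negative. Their median was 0.0025, beside 0.0082 over all genes tested. The median size of the difference, whatever its sign, was 0.053 for members and 0.11 for all genes tested. The 95% interval lay within a 1.2-fold change either way for 38 of the 46 members and within a 1.5-fold change for 45, against 32.2% and 73.1% of all genes tested. The gene outside 1.5-fold was egl-1. These bounds are for RNA of whole worms, in which fewer cells of a type and less RNA per cell cannot be told apart.

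**Figure D1:**
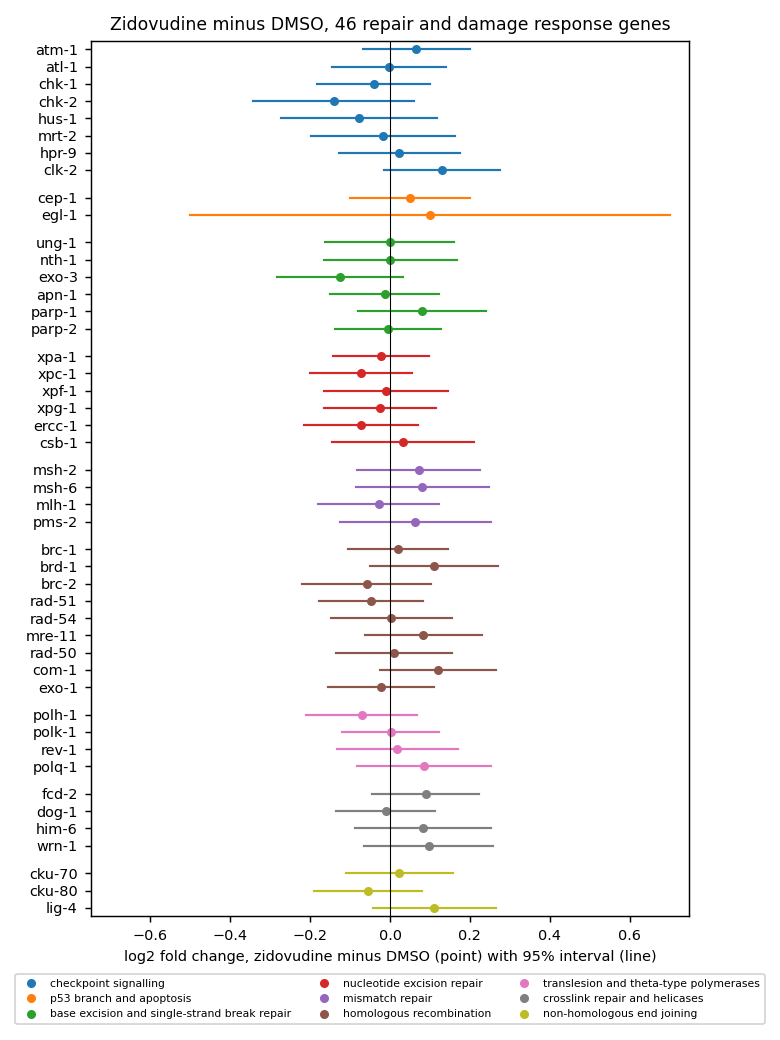
Log2 fold change, zidovudine minus DMSO, of each of the 46 members (point) with its 95% interval from limma (line), coloured and grouped by role, for 4 libraries in each group. Every interval spans 0, points lie between -0.14 and 0.13, and only that of egl-1 is wide (-0.50 to 0.70).

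The libraries held 30449021 to 56930820 reads assigned to genes, and the members together took 0.440% to 0.483% of them. DMSO 4 came off a different flow cell from the remaining 7. It also listed 8.24% of genes at 0 reads, against 1.07% to 2.17% in the others. DMSO 4 was the lowest library of its group for 24 of the 46 members and zidovudine 2 the lowest of its group for 30. Without DMSO 4, which leaves 1 flow cell, the members' median difference was -0.0025 and again 0 passed at an unadjusted p under 0.05. Without both libraries the median was 0.024, with 0 members past the adjusted threshold and 1, clk-2, under an unadjusted p of 0.05.

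Among the checkpoint genes 3 differences were positive and 5 negative (median -0.010). atm-1 encodes the ATM kinase, which answers to double-strand breaks (WBGene00000227; chromosome I, 183364 to 208384 in WBcel235, protein coding). Its level was 6.61, 6.63, 6.60 and 6.50 log2 CPM in DMSO 1 to 4 and 6.57, 6.60, 6.75 and 6.69 in zidovudine 1 to 4. The groups overlapped, with DMSO 4 lowest and zidovudine 3 highest. The difference was 0.066 (SE 0.063, 95% interval -0.067 to 0.20, limma adjusted p = 0.685). atl-1 encodes the ATR kinase, which answers to stalled forks and single-stranded DNA (WBGene00000226; chromosome V, 9634849 to 9645595). In the DMSO libraries it was at 8.04, 8.01, 8.01 and 7.91 log2 CPM and in the zidovudine libraries at 8.02, 7.83, 8.02 and 8.08. Zidovudine 2 stood lowest, DMSO 4 was next, and the remaining libraries lay at 8.01 to 8.08. The difference was -0.0032 (SE 0.067, 95% interval -0.15 to 0.14, limma adjusted p = 0.990), an interval from a 1.11-fold decrease to a 1.10-fold increase. With each library's trend on exon length removed it was -0.12 (limma adjusted p = 0.378).

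clk-2, the worm gene for the TEL2 protein that ATM and ATR kinases depend on, had the smallest p of all 46 members (WBGene00000537; chromosome III, 7515222 to 7518524). It was at 6.07, 6.14, 5.99 and 6.01 log2 CPM under DMSO and at 6.17, 6.05, 6.24 and 6.27 with zidovudine. Zidovudine 1, 3 and 4 were above every DMSO library, and zidovudine 2 lay among them. The difference was 0.13 (SE 0.068, 95% interval -0.015 to 0.27), with an unadjusted limma p of 0.0761 and an adjusted p of 0.477. Without zidovudine 2 it was 0.17 (limma adjusted p = 0.198), and with each library's trend on exon length removed it was 0.076. Across the 19 other settings tried the adjusted p of clk-2 was at least 0.198. Its unadjusted limma p was 0.049 with quantile normalization and 0.032 with sample quality weights. It was 0.019 without zidovudine 2, 0.024 without DMSO 4 and zidovudine 2 together, and above 0.05 in the remaining settings. Its exons share 64 nt with the opposite-strand gene cls-1, and whether reads were counted by strand is not stated.

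The remaining checkpoint genes were chk-1 and chk-2, for the effector kinases, and hus-1, mrt-2 and hpr-9, for the subunits of the 9-1-1 clamp. chk-2, whose kinase starts chromosome pairing and break formation in worm meiosis, was at 4.66, 4.54, 4.75 and 4.97 log2 CPM in DMSO 1 to 4 and at 4.53, 4.58, 4.65 and 4.59 with zidovudine. DMSO 4 was the highest library and DMSO 2 lay within the zidovudine range. The difference was -0.14 (SE 0.095, 95% interval -0.34 to 0.061, limma adjusted p = 0.574). It was -0.061 without DMSO 4 and -0.21 without DMSO 2 (limma adjusted p = 0.433 without DMSO 2). The differences of chk-1, hus-1, mrt-2 and hpr-9 were -0.041, -0.078, -0.017 and 0.024.

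In the p53 branch, cep-1, the only p53 family gene of the worm, was at 6.65, 6.74, 6.64 and 6.47 log2 CPM in the 4 DMSO libraries and at 6.69, 6.54, 6.75 and 6.71 with zidovudine (WBGene00000467; chromosome I, 8324286 to 8328859). The groups overlapped, and DMSO 4 and zidovudine 2 were the lowest libraries. The difference was 0.050 (SE 0.071, 95% interval -0.10 to 0.20, limma adjusted p = 0.794). CEP-1 is known to act on damage mainly through its protein, so its mRNA is not a readout of its activity. A closer readout is egl-1, a BH3-only gene that CEP-1 switches on in germ cells (WBGene00001170; chromosome V, 14431308 to 14432359). egl-1 was at -0.30, 0.04, 0.22 and 0.20 log2 CPM under DMSO and at -0.10, 0.73, -0.14 and 0.07 with zidovudine. Zidovudine 2 was highest, and the other 3 zidovudine libraries lay within the DMSO range. Only 30 to 52 reads per library lay behind these values. The difference was 0.10 (SE 0.28, 95% interval -0.50 to 0.70, limma adjusted p = 0.905), an interval from a 1.42-fold decrease to a 1.63-fold increase.

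**Figure D2:**
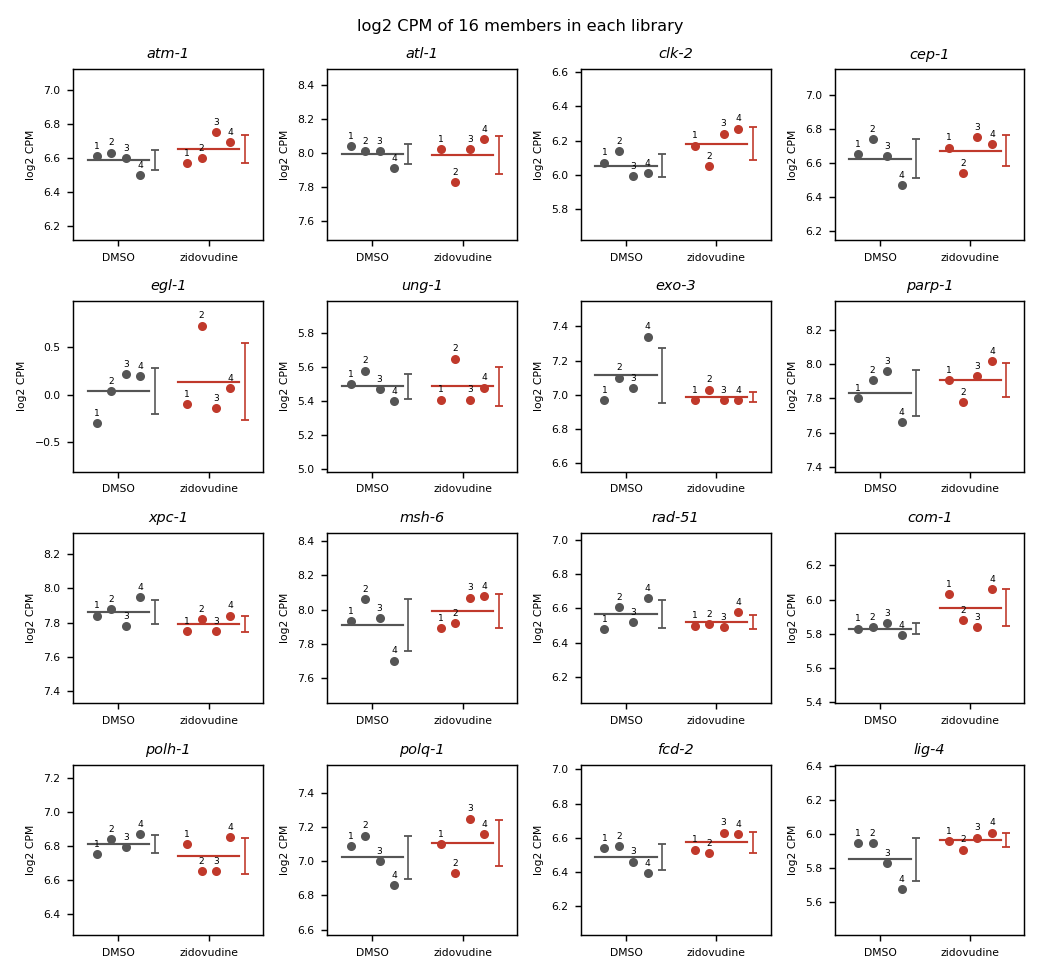
log2 CPM (vertical axes, each of its own range) of 16 members in the 4 DMSO (grey) and 4 zidovudine (red) libraries, numbered by replicate; lines are group means and bars at the side ±1 SD. The groups overlap in all 16 panels, and DMSO 4 or zidovudine 2 is often the lowest point.

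Of the 6 genes of base excision and single-strand break repair, 2 were above 0 and 4 below. ung-1 encodes the uracil-DNA glycosylase that removes uracil from DNA (WBGene00013241; chromosome III, 11971467 to 11974096). Its level was 5.50, 5.58, 5.47 and 5.40 log2 CPM with DMSO and 5.41, 5.65, 5.41 and 5.48 with zidovudine. Both groups spread over nearly the same range. The difference was -0.0011 (SE 0.076, 95% interval -0.16 to 0.16, limma adjusted p = 0.998), which leaves room for a change of up to 1.12-fold either way. exo-3, for one of the 2 AP endonucleases listed, which cut the sites that glycosylases leave, had the smallest p of this role (WBGene00001372; chromosome I, 11907525 to 11909280). It was at 6.97, 7.10, 7.04 and 7.34 log2 CPM in DMSO 1 to 4 and at 6.97, 7.03, 6.97 and 6.97 with zidovudine. DMSO 4 stood above all others, and DMSO 1 was level with 3 zidovudine libraries. The difference was -0.13 (SE 0.074, 95% interval -0.28 to 0.032, limma adjusted p = 0.526). It was -0.050 without DMSO 4 and -0.17 without DMSO 1 (limma adjusted p = 0.438 without DMSO 1).

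parp-1 encodes a poly(ADP-ribose) polymerase that senses strand breaks (WBGene00004049; chromosome I, 2907725 to 2925529). It was at 7.80, 7.91, 7.96 and 7.66 log2 CPM in the 4 DMSO libraries and at 7.91, 7.78, 7.93 and 8.02 with zidovudine. The ranges overlapped, again with DMSO 4 lowest. The difference was 0.080 (SE 0.075, 95% interval -0.080 to 0.24, limma adjusted p = 0.683). Those of the second AP endonuclease gene apn-1, the glycosylase gene nth-1 and parp-2 were -0.013, 0.00027 and -0.0052. The value of nth-1 is uncertain, since 591 of its 1878 exon bases (31.5%) overlap the opposite-strand gene R10E4.6. For each of the other members that share exon bases with a neighbour, the share was at most 7.66% (hpr-9).

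Nucleotide excision repair had 1 member above 0, csb-1 (0.032), and 5 below, with a median of -0.024. CSB-1 starts the transcription-coupled branch of this pathway and XPC-1 the genome-wide branch. xpc-1 (WBGene00022296; chromosome IV, 1993089 to 2009027) was at 7.84, 7.88, 7.78 and 7.95 log2 CPM under DMSO and at 7.75, 7.82, 7.75 and 7.84 with zidovudine. The upper zidovudine values fell inside the DMSO range. The difference was -0.073 (SE 0.060, 95% interval -0.20 to 0.056, limma adjusted p = 0.644), and -0.15 (limma adjusted p = 0.375) with the trend on exon length removed. The damage-verifying factor gene xpa-1 was at -0.024. The genes of the incising nucleases were at -0.0098 (xpf-1), -0.073 (ercc-1) and -0.025 (xpg-1).

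Mismatch repair had 3 of 4 members above 0 and a median of 0.068. That median was -0.0060 without DMSO 4, 0.11 without zidovudine 2, 0.036 without both and 0.011 with the length trend removed. The MutS-type subunits that bind mismatches were at 0.072 for msh-2 and 0.081 for msh-6, and the MutL-type subunits at -0.028 for mlh-1 and 0.064 for pms-2. msh-6 (WBGene00003422; chromosome I, 3449326 to 3462174) was at 7.93, 8.06, 7.95 and 7.70 log2 CPM in DMSO 1 to 4 and at 7.89, 7.92, 8.07 and 8.08 with zidovudine. DMSO 4 was low, and the other 3 DMSO libraries lay inside the zidovudine range. The msh-6 difference had an SE of 0.078, a 95% interval of -0.085 to 0.25 and a limma adjusted p of 0.691. It was 0.035 without DMSO 4 and zidovudine 2, and 0.017 with the length trend removed.

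The recombination genes had 6 positive and 3 negative differences, and a median of 0.0093 that was -0.049 with the length trend removed. Break ends are trimmed by MRE-11 and RAD-50 with COM-1, the worm relative of CtIP, and by the exonuclease EXO-1. com-1 (WBGene00008082; chromosome III, 10896363 to 10901836) was at 5.83, 5.84, 5.86 and 5.79 log2 CPM in the 4 DMSO libraries and at 6.03, 5.88, 5.84 and 6.06 with zidovudine. Zidovudine 1, 2 and 4 were above every DMSO library, and zidovudine 3 was among them. The difference was 0.12 (SE 0.069, 95% interval -0.026 to 0.27, limma adjusted p = 0.517). Those of mre-11, rad-50 and exo-1 were 0.084, 0.0093 and -0.023.

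RAD-51 is the recombinase that coats the trimmed ends and searches for the homologous strand, BRC-2 loads it, and RAD-54 assists it on DNA. rad-51 (WBGene00004297; chromosome IV, 10281634 to 10284244) was at 6.48, 6.61, 6.52 and 6.66 log2 CPM under DMSO and at 6.50, 6.51, 6.49 and 6.58 with zidovudine. Every zidovudine value fell inside the DMSO range. The difference was -0.048 (SE 0.062, 95% interval -0.18 to 0.083, limma adjusted p = 0.769). brc-2 and rad-54 were at -0.058 and 0.0033. The ubiquitin ligase partners brc-1 and brd-1, the worm BRCA1 and BARD1, were at 0.020 and 0.11. For brd-1 the low value of DMSO 4 (5.83 log2 CPM, against 6.11 to 6.14 in the other DMSO libraries) entered that difference. The brd-1 difference was 0.037 without DMSO 4, 0.14 without zidovudine 2 and 0.065 without both.

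Translesion polymerases and polymerase theta were 3 above 0 and 1 below. polh-1, for polymerase eta, which copies past ultraviolet lesions, had the smallest p among them (WBGene00018721; chromosome III, 1945058 to 1950269). It was at 6.75, 6.84, 6.79 and 6.87 log2 CPM in DMSO 1 to 4 and at 6.81, 6.65, 6.65 and 6.85 with zidovudine. Zidovudine 2 and 3 were lowest, and zidovudine 1 and 4 lay inside the DMSO range. The difference was -0.071 (SE 0.065, 95% interval -0.21 to 0.068, limma adjusted p = 0.676). polq-1 encodes polymerase theta, which joins broken ends through short matching stretches (WBGene00020964; chromosome III, 5791119 to 5803160). It was at 7.09, 7.15, 7.0 and 6.86 log2 CPM in the 4 DMSO libraries and at 7.10, 6.93, 7.25 and 7.16 with zidovudine. DMSO 4 and zidovudine 2 were the lowest libraries. The difference was 0.085 (SE 0.078, 95% interval -0.082 to 0.25, limma adjusted p = 0.676), or 0.0012 with the length trend removed. polk-1, for polymerase kappa, and rev-1 were at 0.0017 and 0.018.

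Crosslink repair and its helicases had 3 of 4 members above 0 and the highest median of the roles with at least 3 members, 0.086. That median was 0.034 without DMSO 4, 0.12 without zidovudine 2, 0.074 without both and 0.020 with the length trend removed. fcd-2, the worm FANCD2 (WBGene00012767; chromosome IV, 15025710 to 15037036), was at 6.54, 6.55, 6.46 and 6.39 log2 CPM under DMSO and at 6.53, 6.51, 6.63 and 6.62 with zidovudine. Zidovudine 3 and 4 were above all DMSO libraries, and zidovudine 1 and 2 were not. The difference was 0.089 (SE 0.063, 95% interval -0.044 to 0.22, limma adjusted p = 0.589). The FANCJ-type helicase gene dog-1, needed for runs of guanines, was at -0.0105. The BLM and WRN helicase genes him-6 and wrn-1 were at 0.082 and 0.097.

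In non-homologous end joining, the Ku genes cku-70 and cku-80 were at 0.024 and -0.056 and the ligase gene lig-4 at 0.11. lig-4 (WBGene00002986; chromosome III, 7521463 to 7524870) was at 5.95, 5.95, 5.83 and 5.68 log2 CPM in DMSO 1 to 4 and at 5.96, 5.91, 5.98 and 6.01 with zidovudine. DMSO 4 was lowest, and DMSO 1 and 2 lay among the zidovudine libraries. The difference (SE 0.072, 95% interval -0.043 to 0.27, limma adjusted p = 0.561) was 0.073 without DMSO 4 and zidovudine 2.

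Levels of different genes were compared as CPM per kb of exon, with lengths from the union of annotated exons. exo-3 was the highest member at 134 ± 15.3 in the DMSO libraries and 122 ± 2.64 in the zidovudine libraries (SD, n = 4 each). The next were apn-1 (94.7 with DMSO), the damage-verifying gene xpa-1 (91.5), parp-2 (83.1) and parp-1 (73.6). The lowest above egl-1 were csb-1 (9.57), chk-2 (10.5), atm-1 (12.7) and nth-1 (14.3). egl-1 itself stood far below the rest at 1.77 with DMSO and 1.95 with zidovudine. Between nth-1 and exo-3 the order was gradual and many neighbours overlapped over libraries, as the plot of levels per exon length shows.

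**Figure D3:**
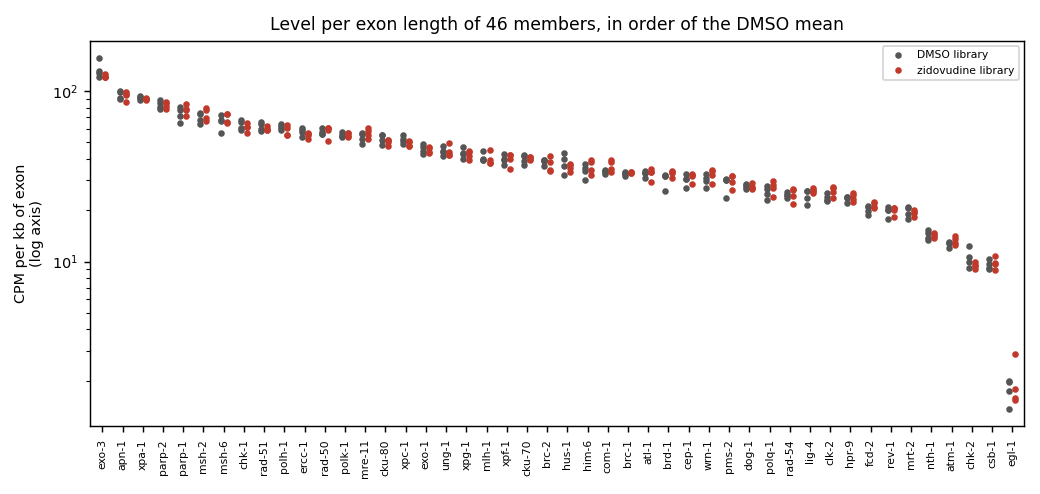
CPM per kb of exon (log axis) of the 46 members in each DMSO (grey) and zidovudine (red) library, in order of the DMSO mean. The points of both groups overlap for every gene, from exo-3 (134 with DMSO) to egl-1 (1.77).

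Partners of known complexes were set beside each other on the same scale, as pairs chosen after the values were seen and with no test. The ratio of msh-2 to msh-6 was 1.01 to 1.13 with DMSO and 1.01 to 1.08 with zidovudine, so these mismatch-binding partners stood at near equal levels. The ratio of mre-11 to rad-50 was 0.873 to 1.01 and 0.902 to 1.03, also close to 1. That of brc-1 to brd-1 was 1.04 to 1.22 with DMSO and 0.978 to 1.07 with zidovudine. The nuclease pair xpf-1 and ercc-1 was less even, at 0.606 to 0.80 and 0.617 to 0.808. So was the mismatch repair pair mlh-1 and pms-2, at 1.3 to 1.68 with DMSO and 1.25 to 1.45 with zidovudine. Ku partners were at 0.661 to 0.813 and 0.773 to 0.826 for cku-70 over cku-80. Within the clamp, hus-1 exceeded mrt-2 by 1.55 to 2.44 times with DMSO and 1.66 to 2.04 times with zidovudine. The kinase gene atl-1 stood at 2.52 to 2.63 times atm-1 and 2.29 to 2.67 times, and chk-1 at 5.48 to 7.17 times chk-2 and 6.23 to 6.84 times. The groups overlapped in all 12 pairs compared.

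The members' differences followed exon length as those of the whole table did. Of the 9 members with under 1500 nt of exon 8 were below 0, with a median of -0.024, and of the 15 with 3000 nt or more 12 were above 0, with a median of 0.064. Over all genes tested the medians of the same length classes were -0.042 and 0.072. The Spearman correlation of difference with length was 0.390 across the 46 members and 0.366 across the 12376 genes tested with a length, which are genes of the same 8 libraries and not independent replicates. By library, the long members deviated from their group mean by a median of -0.15 in DMSO 4 and -0.14 in zidovudine 2, and by 0.070 in DMSO 2, 0.069 in zidovudine 3 and 0.054 in zidovudine 4. With each library's trend on length removed, 16 members were above 0 and 30 below (median -0.027), and 0 passed the adjusted threshold. In that setting 6199 of all genes tested were above 0 and 6183 below. atl-1 was then at -0.12 (limma adjusted p = 0.378) and was the 1 member with no overlap between groups, where the share over all genes tested was 7.03%. The checkpoint genes had 7 of 8 members below 0, nucleotide excision 5 of 6, recombination 6 of 9, base excision 4 of 6 and translesion 3 of 4. End joining had 2 of 3 below 0, the p53 branch 1 of 2, and mismatch and crosslink repair 1 of 4 each.

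**Figure D4:**
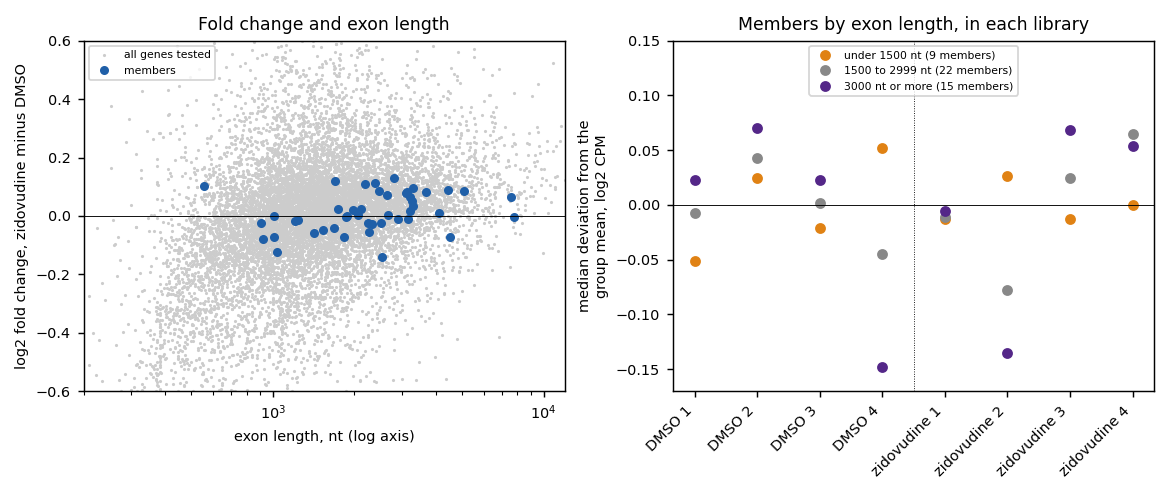
Left, log2 fold change (zidovudine minus DMSO) against exon length (log axis) for members (blue) and all genes tested (grey), with 393 genes beyond ±0.6 out of view. Right, the median deviation of short, middle and long members from their group mean (log2 CPM) in each library; long members sit lowest in DMSO 4 (-0.15) and zidovudine 2 (-0.14).

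A wider list held 84 other gene symbols of these pathways, with 76 matched in the table and 75 tested. The unmatched symbols had no gene ID, so whether their genes are in the table under another name is not known. Of the 75 tested, 0 passed the adjusted threshold, and 39 differences were positive and 36 negative (median 0.0083). At an unadjusted p under 0.05 there were 0 higher and 3 lower, beside 6.28% higher and 5.48% lower over all genes tested. The 3 were ndx-4, which encodes a Nudix hydrolase, cdk-7, for the kinase of the TFIIH complex, and helq-1, for a helicase of recombination repair. ndx-4 had means of 4.69 ± 0.25 log2 CPM in the DMSO libraries and 4.33 ± 0.24 under zidovudine (SD, n = 4 in each group; difference -0.36, SE 0.14, limma adjusted p = 0.322). cdk-7 was at -0.15 (SE 0.060, limma adjusted p = 0.336) with no overlap between groups, and helq-1 at -0.23 (SE 0.10, limma adjusted p = 0.413). In the other lists the genes with the smallest p were rpa-4, related to a subunit of the single-strand binding protein RPA, at 0.23, the caspase gene ced-3 at 0.10 and the ubiquitin conjugation gene uev-1 at -0.18. The Nudix gene ndx-1 was the only other one with no overlap between groups, which held for 6.65% of all genes tested. Its level was low, at a mean of 1.15 log2 CPM with DMSO and 1.53 with zidovudine (difference 0.38, SE 0.19, limma adjusted p = 0.440).

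Germ line markers, which mark the tissue in which many repair genes are active, had 6 of 14 tested members above 0 and a median of -0.024. Their summed level was 3810 to 4100 CPM with DMSO and 3749 to 4280 with zidovudine, so the groups overlapped. All 9 oocyte markers were above 0 (median 0.12), at 9341 to 10770 CPM summed with DMSO and 9951 to 12040 with zidovudine. Of the 8 sperm markers tested 7 were below 0 (median -0.32), and spe-41 was above 0 at 0.38 (SE 0.11, limma adjusted p = 0.187). The 11 sperm markers matched in the table summed to 43.75 to 54.03 CPM with DMSO and 38.34 to 46.35 with zidovudine. All 5 embryonic epidermis markers (median 0.45) and all 5 pharynx markers (median 0.34) were above 0. Embryonic epidermis markers summed to 101.5 to 113.2 CPM with DMSO and 127 to 157 with zidovudine, and pharynx markers to 91.2 to 105 and 117 to 145, without overlap. Medians were 0.051 for intestine (6 of 7 above 0), 0.13 for body wall muscle (4 of 6), 0.11 for neuron (6 of 7) and -0.16 for hypodermis (0 of 5). No marker of these 9 lists passed the adjusted threshold. The lists were chosen with earlier results of these data known, so their counts and sums are description only. Median exon lengths were 2566 nt for embryonic epidermis, 2158 nt for pharynx and 2314 nt for germ line markers. They were 4764 nt for body wall muscle, 1801 nt for oocyte, 1908 nt for intestine and 1925 nt for neuron markers. For sperm and hypodermis markers they were 1046 nt and 989 nt, against 1438 nt over all genes tested. The part of exon length in the markers' differences, and of these tissues in the members' values, was not tested.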

How the data were processed

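Worm mRNA was captured with oligo-dT and made into libraries with a directional kit, per the labels' protocols. The authors deposited log2 CPM, reads scaled to library size and put on a log2 scale, in 1 table with 1 column per library; its headers say CPM, but it goes below 0. FastQC, limma 3.40.6, edgeR 3.26.8, HTSeq 0.11.0, HISAT2 2.1.0 and Trimmomatic 0.32 appear in the submitters' processing notes, with no roles. The authors' genome build, annotation and strand setting were not found in the labels or headers. The lowest value (-4.39) stands for 0 reads; above it, values rose in whole steps for 100% of entries (tolerance 0.05 reads), which gave the reads behind each one and an added prior of 2 reads on average, which pulls differences of sparse genes toward 0.

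Group differences were tested with limma-trend (limma 3.58.1, R 4.3.3, robust, two-sided, group as the only term) on the 12382 genes averaging at least 0 log2 CPM. P-values were adjusted over all of these by the Benjamini-Hochberg method, threshold 0.05. Library pairs within a group gave chi-squares of 17.5 to 88.2 for each degree of freedom, so none was a repeat of another. Positions and exon lengths came by gene ID from Ensembl release 115 (WBcel235), and nse-1 was also matched by ID. The length trend was a spline with 4 degrees of freedom per library. Scripts were tested on simulated data. Values of every library are given for 8 members preset for their roles, for the smallest p in each role, and for chk-2, added after its value was seen. Members, lists, tests and settings were chosen with earlier results of these data known.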

Additional observations from a re-analysis of the deposited data

Results flagged for a closer look

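In 6 of 92 groups of 4 libraries, 1 library of a member stood apart from the other 3 by more than Dixon's 95% critical value for 4 samples, where chance gives about 1 in 20 groups. DMSO 4 was low for pms-2 (6.24 log2 CPM, the others at 6.58 to 6.61), brd-1 (5.83, the others at 6.11 to 6.14) and hpr-9 (5.26, the others at 5.37 to 5.38). DMSO 3 was high for mlh-1 (6.71, the others at 6.52 to 6.54). Zidovudine 2 was low for rad-50 (7.72, the others at 7.94 to 7.97) and high for exo-3 (7.03, the others at 6.97). DMSO 4 came from another flow cell, and its part in these values cannot be told apart from the library itself.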

How the results depend on the processing

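In all 19 other settings 0 members passed the adjusted threshold, and at an unadjusted p under 0.05 there were 0 to 2. The members' median difference ran from -0.027 (length trend removed) to 0.032 (without zidovudine 2), and 22 of the 46 members kept their sign in every setting; 83 of 873 single values changed sign. The count of all genes past the threshold was 21 (7 higher, 14 lower). It was 13 with quantile normalization (6 higher, 7 lower), 12 with library totals as scaling, 4 in limma without trend, 148 with sample quality weights, 156 without DMSO 4 and zidovudine 2 together, and 4 to 41 when 1 library was left out. With the replicate number as a block it was 9, with 0 members. Whether the numbers pair the libraries is not stated, and correlations across genes cannot settle it. Same-numbered deviations correlated at -0.323 to 0.143, and zidovudine 2 deviated most like DMSO 4 (0.369). Members with no overlap between groups were 1 with the length trend removed (atl-1; 7.03% of all genes tested), 3 without DMSO 4 and zidovudine 2 together (brd-1, clk-2 and lig-4; 20.8%) and 0 to 3 when 1 library was left out (8.63% to 16.5%). With fewer libraries, more genes show no overlap by construction. The medians of the checkpoint, base excision, mismatch repair, recombination, translesion and end joining genes changed sign on leaving out at least 1 of the libraries. The planned edgeR and DESeq2 tests on the recovered reads were not run; voom on those reads gave 0 members and 21 genes in all. The member with the fewest reads was egl-1, at 30 to 52 per library, and its interval was the widest.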
